A study of Homo sapiens with 9 samples.

Results

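The 62 genes described here encode the collagens, the laminins, the proteins that link and fill basement membranes, and fibronectin. The rule took their names from the annotation on the arrays, as every collagen chain and laminin chain together with NID1, NID2, HSPG2, AGRN, NPNT and FN1, and they account for 102 of the 50598 probes. The array names 38779 genes and transcripts in all. RNA came from HEK293, a line of human embryonic kidney origin. For WT replicates 2 and 3 one label field reads HEK294 and HEK295 while another reads HEK293, and they were taken as HEK293. Its cells stably carried MEK1, the kinase that phosphorylates ERK, with an HA tag, as WT, as F53S, a mutant found in the RASopathies, or as K57N, a mutant found in cancer. The 3 lines were each made by plasmid transfection and puromycin selection, and were sampled at steady state on 3 arrays per line, from independent experiments by the methods. The control is thus a line that also carries extra MEK1, and no line without the transgene was analysed here. Each mutation stands for a single stable line, whose clonal or pooled origin is not given in the sources used here, so the mutation and other differences between lines cannot be told apart.

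Basement membranes are thin sheets beneath epithelia and around vessels. Networks of laminin and of collagen IV form them, nidogens tie these networks together, and the heparan sulfate proteoglycans perlecan and agrin fill them. Fibrillar collagens such as types I, III and V instead build the cable-like fibrils of connective tissue, and the FACIT collagens sit on those fibrils. All values below are log2 of the processed signal relative to the 75th percentile of the same array, so a value of 1 is a signal of 2 times that percentile, and differences between lines are log2 differences of such values. A probe was tested if at least 1 line had it well above background on each of its 3 arrays. By that measure 46 of the 62 genes were tested, among 19280 genes in all: 22 of 25 basement membrane genes, 7 of 11 fibrillar collagens and 17 of 26 others. A gene was called where limma's adjusted p was below 0.05 and the difference was more than 2-fold.

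The arrays of replicate 1 lay on one slide and those of replicates 2 and 3 on a second slide, for every line. The processed signal at the 75th percentile was 245 to 376.2 on the first slide and 695 to 821 on the second, and between 23714 and 29324 probes were well above background. Arrays of the same number deviated together, which cannot be told apart from the slide for replicate 1. Values with the replicate number as a term in the fit are given wherever they change a call. Among markers of the line itself, 6 of 8 were tested, with VIM, KRT8 and KRT18 well above background on every array. Of 6 fibroblast markers 1 was tested, and DCN, POSTN and PDGFRB were well above background on none of the 9 arrays. Among endothelial markers 2 of 5 were tested and among leukocyte markers 4 of 5. No member of these 4 marker lists was called in any comparison. The probe for MAP2K1, the gene of MEK1, stood between 2.34 and 2.42 on the WT arrays, between 2.39 and 2.5 on the F53S arrays and between 2.81 and 2.92 on the K57N arrays. Its K57N minus WT difference of 0.48 was under 2-fold (adjusted p = 0.135, and 0.0188 with the replicate number as a term), and whether the probe reads the transgene was not tested.

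In K57N cells 5 of the 46 tested genes fell against WT: nephronectin, agrin, the collagen IV chain COL4A4 and both tested chains of collagen V. The 3 that rose were the laminin chain LAMA4 and the transmembrane collagens COL13A1 and COL23A1. For LAMA4 and COL23A1 the call rests on 1 of several probes and was lost with the mean of the gene's probes. The background was 0.742% of all tested genes called lower and 1.52% called higher, against 10.9% and 6.52% of the members. With the replicate number as a term, 8 members were called lower and 4 higher, against a background of 1.87% and 2.52%. The added genes were COL18A1, COL1A1 and COL12A1 on the lower side and LAMB1, on 1 of its 2 tested probes, on the higher. In F53S cells no member was called, and neither was any other of the 19280 tested genes. The arrays of the 2 lines did not overlap for 14 members with K57N below WT and 6 with K57N above, against 12.6% and 10.3% of all tested genes. The map of members by array shows this pattern, with the K57N columns apart from the other 6 for a minority of rows.

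**Figure D1:**
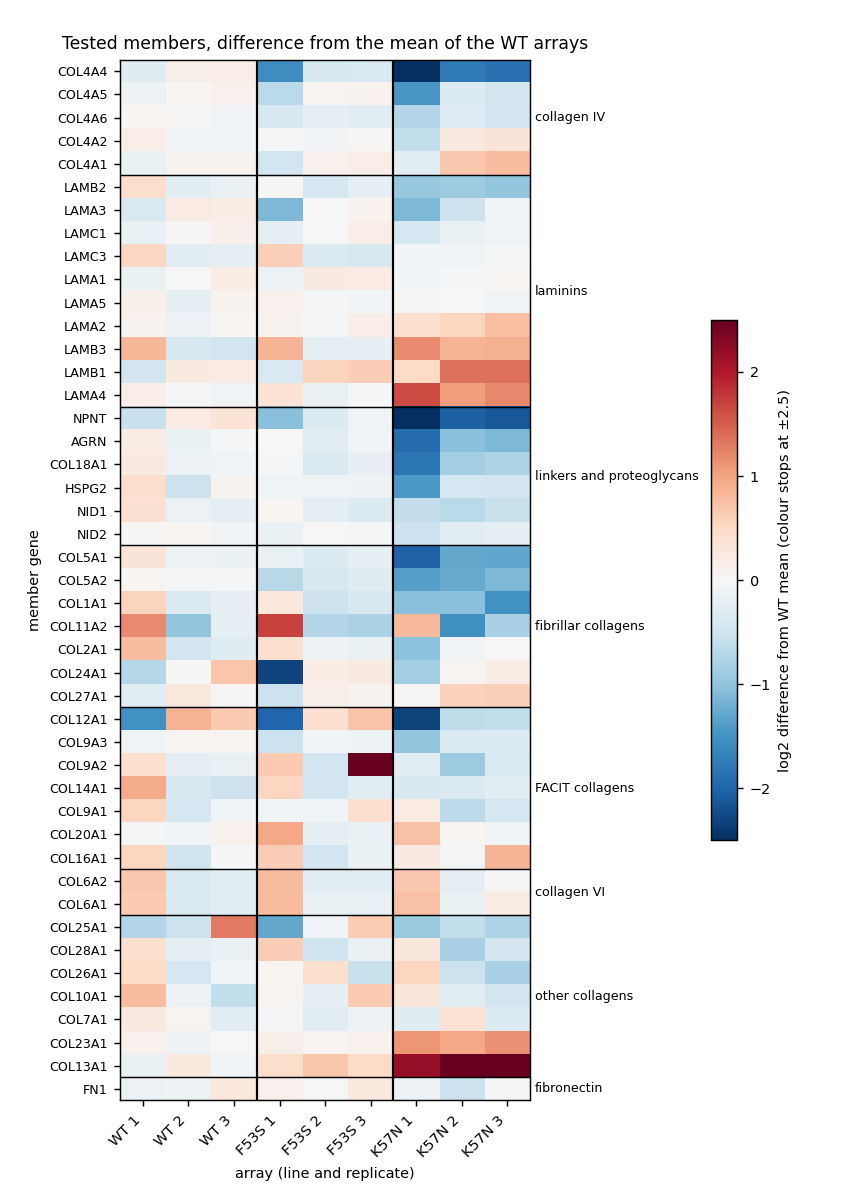
Heat map of 45 of the 46 tested members (rows, grouped by family) on the 9 arrays (columns), coloured by the log2 difference from the mean of the WT arrays, with colours stopping at ±2.5. The rows that change throughout the K57N columns include NPNT and COL4A4 (lower) and COL13A1 and LAMA4 (higher), and COL9A2 stands out on F53S replicate 3.

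Collagen IV is the network-forming collagen of all basement membranes, and its 6 chain genes lie in head-to-head pairs that share the DNA between their starts. In the pair COL4A1 and COL4A2, whose chains make the most widespread form, the WT values of COL4A1 were -0.06, 0.20 and 0.19 and the K57N values -0.18, 0.78 and 0.88. These overlapped, and the difference of 0.38 ± 0.31 (SE, n = 3) was not called (adjusted p = 0.759). COL4A2 had WT values of 4.11, 3.89 and 3.85 and K57N values of 3.34, 4.17 and 4.27, a difference of -0.02 (adjusted p = 0.993). Among the K57N arrays replicate 1 was the lowest for both genes, and for COL4A1 replicate 1 was the lowest in every line. K57N minus WT was -0.12 on slide 1 and 0.64 on slide 2 for COL4A1, and -0.78 and 0.35 for COL4A2.

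The second pair behaved otherwise. COL4A4, a chain of the collagen IV of kidney glomeruli, had WT values of -0.83, -0.37 and -0.35, F53S values of -2.08, -0.93 and -0.90 and K57N values of -3.40, -2.29 and -2.38. The 3 lines did not overlap, with F53S between the other two. K57N was 4.51-fold below WT (-2.17 ± 0.40, adjusted p = 0.0292). F53S minus WT was -0.79 ± 0.40 with an adjusted p of 1. COL4A3, the gene that faces it, was not well above background on any of the 9 arrays and was not tested. In the pair on the X chromosome, COL4A5 had K57N values of -0.75, 0.35 and 0.25 against WT values of 0.57, 0.74 and 0.80, and COL4A6 had K57N values of -0.74, -0.33 and -0.48 against 0.05, 0.03 and -0.08. Both lay below WT without overlap, by -0.75 ± 0.33 and -0.52 ± 0.16, which was under 2-fold and did not pass (adjusted p = 0.383 and 0.173).

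The DNA between the starts is shown for the first 2 pairs because one of them holds the only called collagen IV gene. For a gene with several RefSeq starts on GRCh38.p14 the most upstream was taken, and which start these cells use was not tested. By this rule the starts of COL4A1 and COL4A2 are 127 bases apart, those of COL4A3 and COL4A4 419 and those of COL4A5 and COL4A6 380. Each line runs 5′ to 3′ on the gene's own strand and ends at the base before the start. Capitals mark matches on either strand to any of 7 motifs. The AP-1 motif, read by FOS and JUN proteins, was searched for as TGANTCA. The cyclic AMP response element, or CRE, was searched for as TGACGTCA. The motif of the ETS factors, which include targets of ERK, was searched for as CCGGAAG. EGR1, a factor that ERK signalling induces in many cells, was given the letters GTGGGCG. The GC box, read by SP1 and its relatives, was given the letters GGGCGG. The CCAAT box was searched for by its name, and the TATA box, where it occurs a site of polymerase assembly, as TATAAA. No 2 matches overlap in the windows printed here, although EGR1 and GC box matches can.
COL4A4: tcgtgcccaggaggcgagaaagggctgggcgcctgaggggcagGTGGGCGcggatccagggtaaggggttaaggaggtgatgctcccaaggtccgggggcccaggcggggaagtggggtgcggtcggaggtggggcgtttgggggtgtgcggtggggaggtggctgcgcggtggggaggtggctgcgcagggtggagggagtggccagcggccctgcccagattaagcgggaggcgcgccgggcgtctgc
COL4A3: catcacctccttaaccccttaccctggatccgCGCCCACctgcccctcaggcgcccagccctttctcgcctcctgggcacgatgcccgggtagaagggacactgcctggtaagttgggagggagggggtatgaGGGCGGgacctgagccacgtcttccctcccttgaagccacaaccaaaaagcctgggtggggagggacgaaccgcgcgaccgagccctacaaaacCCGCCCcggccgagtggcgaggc
COL4A1: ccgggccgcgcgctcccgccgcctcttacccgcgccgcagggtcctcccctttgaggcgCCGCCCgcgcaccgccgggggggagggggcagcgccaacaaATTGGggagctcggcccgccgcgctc
COL4A4 is read from chr2:227164206-227164455 on the minus strand and COL4A3 from chr2:227164374-227164623 on the plus strand, so their windows share 82 bases. The EGR1 match of COL4A4, 207 bases upstream of its start, and that of COL4A3, 218 bases upstream, are the same bases read from opposite strands. COL4A3 also has GC box matches 117 and 23 bases upstream, and COL4A4 has none. The COL4A1 line, chr13:110307158-110307283 on the minus strand, is the whole of the 126 bases between its start and that of COL4A2, with a GC box match 67 and a CCAAT box match 26 bases upstream of COL4A1.

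Laminins are trimers of an alpha, a beta and a gamma chain. Of 12 chain genes 11 were tested. On the probes used, their K57N minus WT differences were spread to both sides of 0, from -0.93 to 1.30 with a median of -0.01. LAMA4, the alpha chain found mostly around vessels, muscle and fat, had WT values of 0.55, 0.34 and 0.28, F53S values of 0.74, 0.20 and 0.35 and K57N values of 2.03, 1.44 and 1.59. Every K57N array was above every array of the other lines. The rise over WT was 2.46-fold (1.30 ± 0.22, adjusted p = 0.0203). This call rests on 1 of 4 probes, and the mean of the probes gave 0.75 (adjusted p = 0.0845), as described below. LAMB1, the beta chain of the most widespread laminins, had WT values of 1.71, 2.39 and 2.37 and K57N values of 2.65, 3.53 and 3.53. K57N lay above WT on each slide, by 0.94 on slide 1 and 1.15 on slide 2. Its difference of 1.08 had an adjusted p of 0.208, and of 0.0015 with the replicate number as a term. A second probe gave 0.25 and was called in neither fit. The mean of the probes gave 0.66 (adjusted p = 0.101 without that term).

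At the other end, LAMB2, a beta chain of muscle and kidney laminins, had WT values of 2.90, 2.17 and 2.30 and K57N values of 1.52, 1.57 and 1.49. The lines did not overlap, and the difference of -0.93 ± 0.22 did not reach 2-fold (adjusted p = 0.0762). LAMB3, a chain of the epidermal laminin that was singled out after its values were seen, had K57N values of 1.47, 1.12 and 1.17 against WT values of 1.11, -0.12 and -0.17. It was 0.35 higher on slide 1 and 1.29 higher on slide 2, where the fit to slide 2 alone called it (adjusted p = 0.000936). LAMB4 was not tested. Of the 11 tested laminin genes, 4 lay above WT without overlap (LAMA2, LAMA4, LAMB1 and LAMB3) and LAMB2 lay below, against 10.3% and 12.6% of all tested genes. LAMA2 had a difference of 0.57, while LAMA1 (-0.02), LAMC3 (-0.07), LAMC1 (-0.24) and LAMA3 (-0.59) stood near or below WT. None of these 5 was called. LAMA5 had -0.01 on the probe used, but its second probe had -1.22 (adjusted p = 0.0178), which passes the call, as described below. The lower end of the laminin range thus depends on the probe.

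All 6 tested linkers and proteoglycans had K57N below WT, from -2.22 to -0.34 with a median of -0.96, while the median over all tested genes was -0.06. Their median between same-numbered arrays was -1.93, -0.61 and -0.61 for replicates 1, 2 and 3, against -0.14, 0 and -0.04 over all tested genes. NPNT, or nephronectin, is a basement membrane ligand of the integrin needed for kidney development. Its WT values were 0.38, 1.13 and 1.27, its F53S values -0.11, 0.58 and 0.83 and its K57N values -1.61, -1.11 and -1.18. F53S overlapped WT and every K57N array was below all others. K57N was 4.67-fold below WT (-2.22 ± 0.32, adjusted p = 0.0104), the largest fall among the members tested.

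AGRN, agrin, is a heparan sulfate proteoglycan of kidney basement membranes and of the nerve-muscle synapse. It had WT values of 2.81, 2.46 and 2.58, F53S values of 2.61, 2.34 and 2.54 and K57N values of 0.69, 1.57 and 1.5. The K57N arrays were the 3 lowest. The fall was 2.57-fold (-1.36 ± 0.25, adjusted p = 0.0288), and it was -2.12 on slide 1 and -0.99 on slide 2 (adjusted p = 0.00507 in the fit to slide 2 alone, just under 2-fold). COL18A1, the collagen that carries the endostatin fragment, showed the same unevenness, with K57N values of 2.70, 3.69 and 3.76 against WT values of 4.75, 4.39 and 4.44. The groups did not overlap. The difference of -1.14 ± 0.29 had an adjusted p of 0.0913, and of 0.0433 with the replicate number as a term, and was -2.04 on slide 1 and -0.69 on slide 2. HSPG2, perlecan, was the only gene of the 6 whose lines overlapped, with K57N values of 0.84, 1.85 and 1.83 against WT values of 2.71, 1.77 and 2.36 and a difference of -0.78 (adjusted p = 0.348). The nidogens NID1 (-0.60) and NID2 (-0.34 ± 0.15, the smallest difference) were below WT on every array and were not called, with adjusted p of 0.22 and 0.374. COL15A1 was not tested.

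**Figure D2:**
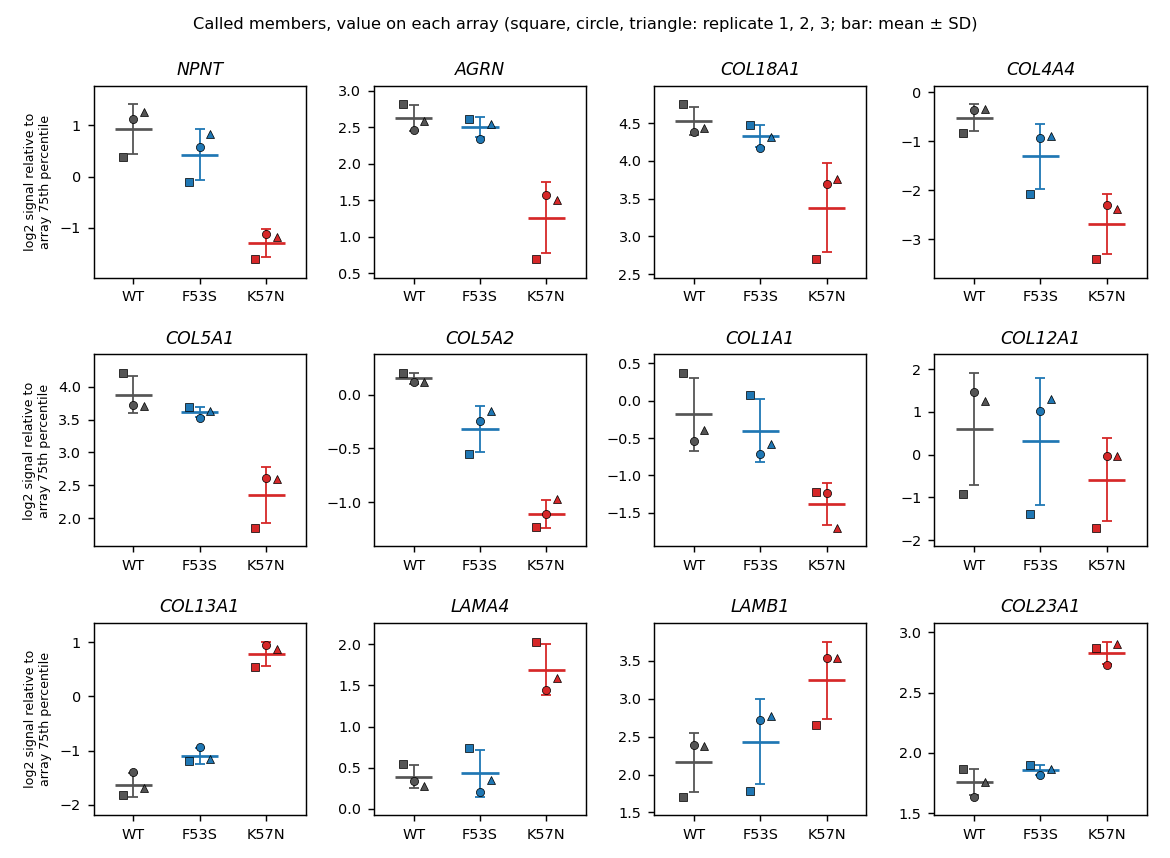
Log2 signal relative to the 75th percentile of the array for the 12 members called with or without the replicate number in the fit, by line, with squares, circles and triangles for replicates 1, 2 and 3 and bars for mean ± SD (n = 3). The K57N arrays lie apart from WT for every gene but COL12A1, whose replicate 1 arrays are low in all 3 lines.

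Fibrillar collagens were fewer on these arrays, and 4 of 11 were not tested: COL1A2, COL3A1, COL5A3 and COL11A1. Collagen V, which starts and thins collagen fibrils, was the fibrillar type whose tested chains both fell. COL5A1 had WT values of 4.21, 3.73 and 3.71, F53S values of 3.69, 3.53 and 3.63 and K57N values of 1.85, 2.61 and 2.59. The lines did not overlap, although F53S lay close to WT. K57N was 2.89-fold below WT (-1.53 ± 0.24, adjusted p = 0.0158), by -2.35 on slide 1 and -1.12 on slide 2. COL5A2, the second chain of the common collagen V trimer, had WT values of 0.20, 0.12 and 0.12, F53S values of -0.55, -0.25 and -0.15 and K57N values of -1.23, -1.11 and -0.97. The 3 lines were again separate, with F53S between the other two. The fall in K57N was 2.38-fold (-1.25 ± 0.16, adjusted p = 0.0068).

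COL1A1, a chain of collagen I, had WT values of 0.37, -0.54 and -0.39 and K57N values of -1.22, -1.23 and -1.70. All K57N arrays were below all WT arrays. The difference of -1.20 ± 0.31 had an adjusted p of 0.0994, and of 0.00841 with the replicate number as a term. COL1A2, which encodes the other chain of collagen I, was well above background on no array. COL3A1 was well above background on 2 WT arrays, 2 F53S arrays and no K57N array. With K57N values raised to the lowest signal well above background on each array, K57N was 1.74-fold below WT, without a test. This is not a firm minimum, since the WT mean includes an array not well above background. COL27A1 had the highest difference among the tested fibrillar collagens, 0.40 ± 0.26 with an adjusted p of 0.645, on 1 of its 2 tested probes. The other COL27A1 probe had -0.09, and the mean of its probes was 0.15. COL2A1, named after its values were seen, was 1.80 lower in K57N on slide 1 and 0.36 higher on slide 2.

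Basement membrane and fibrillar genes can be set side by side in the 3 lines. Against WT, 16 of 22 basement membrane genes and 6 of 7 fibrillar genes had a negative difference in K57N, compared with 57.1% of all tested genes. The medians were -0.29 and -0.50, and -0.06 over all genes. Called lower were 3 basement membrane and 2 fibrillar genes, or 13.6% and 28.6%, and called higher were 1 and 0, against 0.742% lower and 1.52% higher over all tested genes. In the fit with the replicate number, 4 basement membrane and 3 fibrillar genes were called lower (18.2% and 42.9%) and 2 and 0 higher (9.09% and 0%), against 1.87% and 2.52%. Between the same-numbered arrays the basement membrane median was -0.66, -0.12 and -0.21 for replicates 1, 2 and 3, and the fibrillar median was -1.44, -0.56 and -0.59. Over all tested genes the median was -0.14, 0 and -0.04 in these pairs. The fibrillar median was the lower in each of the 3 pairs on the probes used. It rests on 7 genes, and the order depends on the choice of probes. With the mean of a gene's probes the medians were -0.37 for basement membrane and -0.36 for fibrillar genes, and without the filter on dim probes they were -0.34 and -0.36. Over probes well above background on all 9 arrays they were -0.29 and -0.85. Without K57N replicate 1 it was -1.17 and without WT replicate 2 it was -0.99, while the basement membrane median was then -0.20 and -0.27.

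The spread within the basement membrane genes was wide, since the linkers were all negative while the laminins were on both sides of 0. Non-overlap with K57N below WT was seen for 9 of 22 basement membrane and 3 of 7 fibrillar genes, and with K57N above WT for 4 and 0, against 12.6% and 10.3% of all tested genes. In F53S against WT the medians were -0.07 and -0.22, with 0.01 over all genes. With an array left out they ranged from -0.14 to 0 and from -0.4 to -0.1, and the fibrillar median was -0.07 with normexp background correction. In K57N against F53S they were -0.22 and -0.57, with -0.07 over all genes, and without K57N replicate 1 the basement membrane median was -0.10. In that comparison replicate 3 gave the opposite order, with -0.20 for basement membrane and -0.02 for fibrillar genes. The difference between the 2 classes was described only and was not tested.

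**Figure D3:**
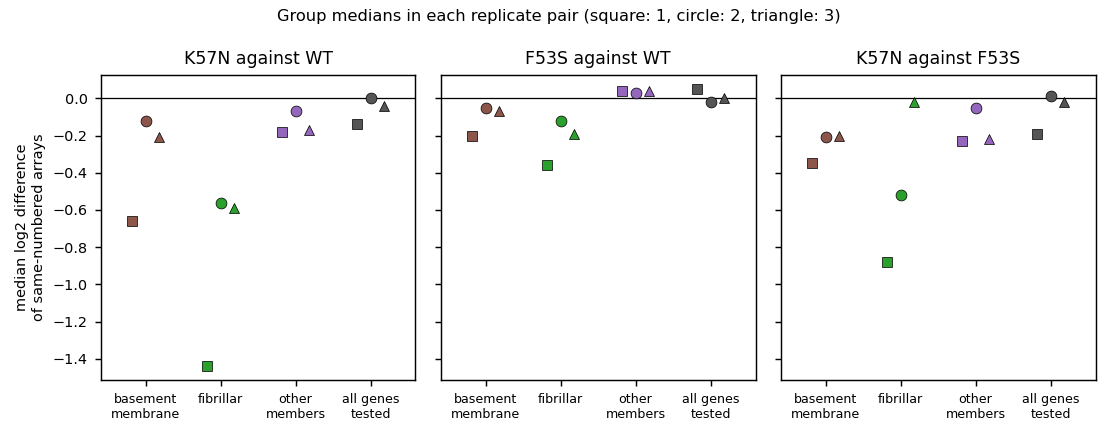
Median log2 difference between same-numbered arrays (squares, circles and triangles for replicates 1, 2 and 3) of 22 basement membrane genes, 7 fibrillar collagens, 17 other members and all tested genes, in the 3 comparisons. Against WT the K57N medians of the fibrillar genes are -1.44, -0.56 and -0.59, below those of the basement membrane genes in each pair.

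The starts of 4 called genes are shown because they include the largest fall (NPNT), the largest rise (COL13A1), the called laminin (LAMA4) and a chain of collagen V (COL5A1). The lines are the 250 bases before each gene's most upstream RefSeq start on GRCh38.p14, with capitals for the same 7 motifs. Other starts of a gene were not searched.
NPNT: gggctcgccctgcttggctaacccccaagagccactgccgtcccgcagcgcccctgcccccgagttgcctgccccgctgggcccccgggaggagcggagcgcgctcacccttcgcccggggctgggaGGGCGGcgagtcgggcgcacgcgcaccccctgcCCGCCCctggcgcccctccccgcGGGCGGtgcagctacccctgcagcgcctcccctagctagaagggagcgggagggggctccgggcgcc
COL5A1: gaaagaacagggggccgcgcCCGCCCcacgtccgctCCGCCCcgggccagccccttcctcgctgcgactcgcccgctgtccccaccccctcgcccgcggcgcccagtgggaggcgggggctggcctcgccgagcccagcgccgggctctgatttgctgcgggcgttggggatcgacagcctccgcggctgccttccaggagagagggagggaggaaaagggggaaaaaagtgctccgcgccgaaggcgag
COL13A1: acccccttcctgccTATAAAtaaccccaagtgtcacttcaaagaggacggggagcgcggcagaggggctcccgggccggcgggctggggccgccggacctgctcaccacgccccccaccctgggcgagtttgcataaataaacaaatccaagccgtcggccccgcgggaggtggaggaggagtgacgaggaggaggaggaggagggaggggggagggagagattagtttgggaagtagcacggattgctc
LAMA4: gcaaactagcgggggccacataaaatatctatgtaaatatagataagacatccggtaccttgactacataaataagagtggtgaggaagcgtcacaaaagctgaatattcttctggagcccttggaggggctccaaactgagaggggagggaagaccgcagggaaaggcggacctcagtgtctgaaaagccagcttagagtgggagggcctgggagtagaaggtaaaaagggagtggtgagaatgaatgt
They come from chr4:105895221-105895470 (NPNT, plus strand), chr9:134641553-134641802 (COL5A1, plus strand), chr10:69801656-69801905 (COL13A1, plus strand) and chr6:112254568-112254817 (LAMA4, minus strand). NPNT has 3 GC box matches and COL5A1 has 2, while COL13A1 and LAMA4 have none. The match in COL13A1 is to the TATA box letters, 236 bases upstream, and LAMA4 has no match to any of the 7. GC box letters are in 42.2% of the 27305 promoters of this length and in 28 of the 46 member promoters that the table holds. EGR1 letters are in 8.61% of all promoters and in 6 of these 46, CCAAT box letters in 33% and 12, and TATA box letters in 11.2% and 5. AP-1 letters are in 6.57%, CRE letters in 1.75% and ETS letters in 8.78% of all promoters, and each is in 1 member promoter, those of LAMA3, FN1 and LAMA5. AGRN, COL5A2, COL1A1 and 13 other members have no entry.

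Of the 7 tested genes among the other collagens, 2 were called higher, against 1.52% of all tested genes, and in COL23A1 the call rests on 1 of its 2 probes. COL13A1, a transmembrane collagen of cell adhesion sites and of the nerve-muscle synapse, had WT values of -1.82, -1.39 and -1.70, F53S values of -1.20, -0.94 and -1.16 and K57N values of 0.54, 0.95 and 0.88. The 3 lines did not overlap, and F53S was nearer to WT. K57N was 5.38-fold above WT (2.43 ± 0.19, adjusted p = 0.000544). F53S was 1.45-fold above WT (0.54 ± 0.19), with an adjusted p of 1. COL23A1, a second transmembrane collagen, had WT values of 1.87, 1.64 and 1.76 and K57N values of 2.87, 2.73 and 2.90 on the probe used for the gene. The groups were far apart, by 1.08 ± 0.14 (adjusted p = 0.00728), and a second probe for the gene gave the opposite sign, as described below. COL25A1, another transmembrane collagen, had a difference of -0.77 ± 0.61 (adjusted p = 0.753). The other 4 tested genes of this list, COL7A1, COL10A1, COL26A1 and COL28A1, had differences of -0.10, -0.14, -0.27 and -0.33 and were not called.

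The FACIT collagens had 7 of 10 genes tested and none called without the replicate number. COL12A1, which binds collagen I fibrils, had WT values of -0.91, 1.46 and 1.26, F53S values of -1.38, 1.02 and 1.31 and K57N values of -1.71, -0.04 and -0.02. In each line replicate 1, on slide 1, was the low array, and K57N overlapped WT only through those arrays. Its K57N minus WT difference was -0.80 on slide 1 and -1.39 on slide 2. Overall it was -1.20, with an adjusted p of 0.724 and of 0.0117 with the replicate number as a term. COL14A1, a FACIT collagen of mature fibrils, had a difference of -0.35 ± 0.41 (adjusted p = 0.891), from -1.34 on slide 1 and 0.14 on slide 2. Its F53S minus WT difference was -0.08 on the probe used (adjusted p = 1). With the mean of its probes the fitted difference was 0.36, so the sign depends on the probe. The second probe for COL14A1 was well above background on 1 WT array, all 3 F53S arrays and no K57N array. With K57N values raised to the floor set by background, K57N was 1.33-fold below WT. That is not a firm minimum, since most WT arrays were not well above background. Against F53S, K57N was at least 2.30-fold lower. The fitted differences, which take K57N signals at background as measured, had adjusted p of 0.142 and 0.0379 in limma. On this probe K57N against F53S thus passes the call, but the counts of members use the other probe. Neither probe was called in F53S against WT. COL16A1 had the highest FACIT difference, 0.35 ± 0.38 (adjusted p = 0.864). COL20A1 (0.24), COL9A1 (-0.29) and COL9A3 (-0.55) were not called.

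COL9A2, a cartilage FACIT chain named after its values were seen, had F53S values of -1.58, -2.71 and 1.45. The third of these was far above the WT range of -2.47 to -1.81 and above every other array. The F53S mean therefore rests on that array, and its difference of 1.29 ± 0.89 was not called (adjusted p = 1). A second COL9A2 probe was well above background on no array. The same F53S array also held the only value well above background for COL22A1, at -0.04 against -7.57 to -5.52 on the other 8 arrays, on 1 of its 2 probes. Collagen VI, which forms beaded filaments around cells, had COL6A1 and COL6A2 tested, with differences of 0.25 ± 0.39 and 0.16 ± 0.41 in K57N. Neither was called (adjusted p = 0.946 and 0.979). FN1, fibronectin, which links cells to the matrix through integrins, had WT values of -3.32, -3.30 and -2.92 and K57N values of -3.33, -3.72 and -3.20. These overlapped, with a difference of -0.24 ± 0.20 (adjusted p = 0.774).

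**Figure D4:**
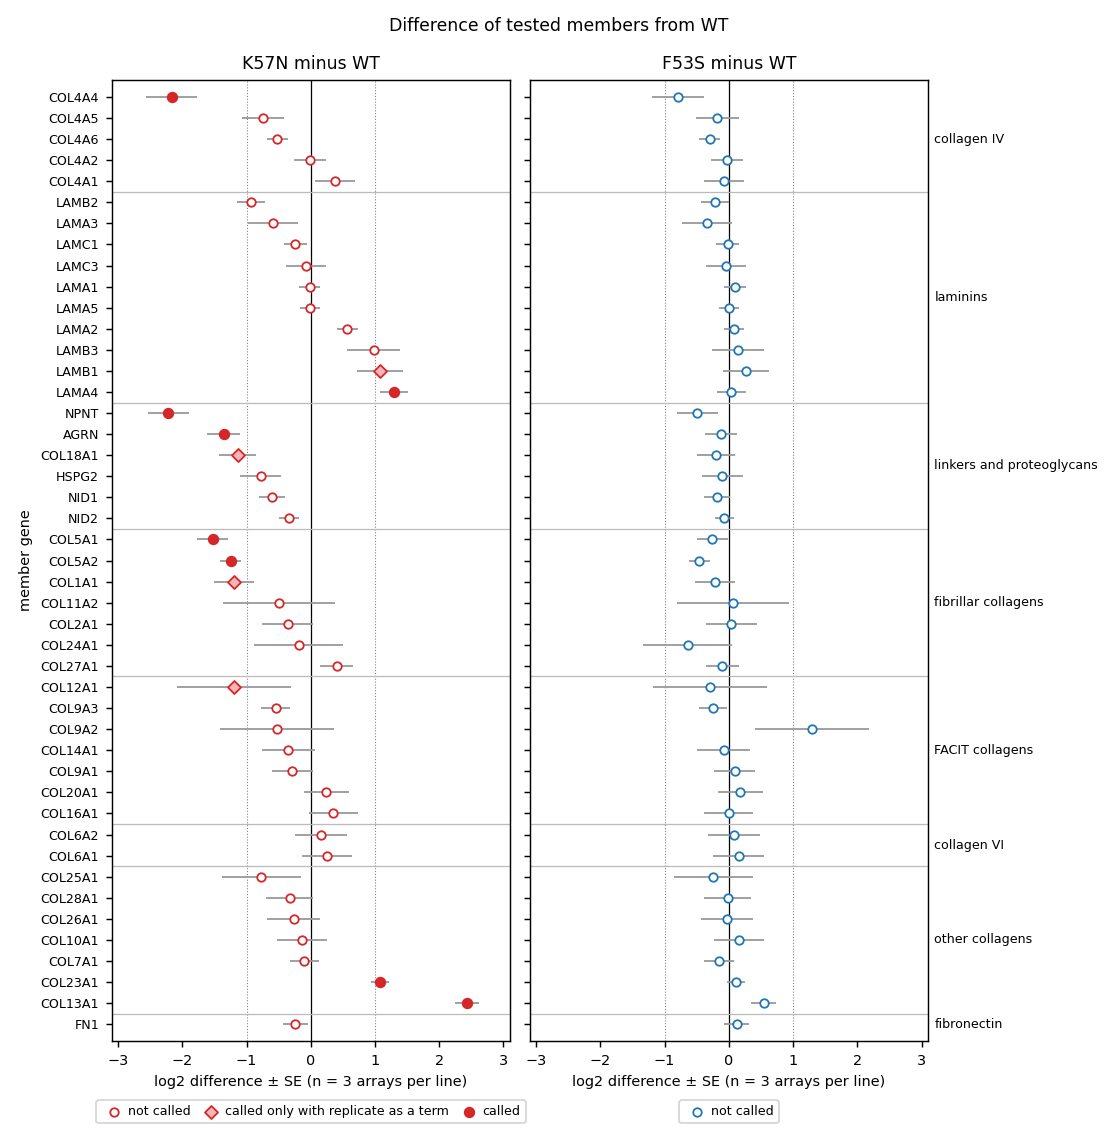
Log2 difference from WT of 45 of the 46 tested members (± SE, n = 3 arrays per line) for K57N (left) and F53S (right), with dotted lines at 2-fold. In K57N 8 genes are called and 4 more with the replicate number as a term, from -2.22 for NPNT to 2.43 for COL13A1. In F53S no member is called, and no other tested gene is.

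The genes that were not tested were COL4A3, LAMB4, COL15A1, COL1A2, COL3A1, COL5A3, COL11A1, COL19A1, COL21A1, COL22A1, COL6A3, COL6A5, COL6A6, COL8A1, COL8A2 and COL17A1. Of these 16, COL8A1 was well above background on 2 K57N arrays and on no array of the other lines. K57N was 1.14-fold above WT with WT values raised to the floor set by background. COL8A2 was well above background on 1 WT array, 2 F53S arrays and no K57N array. K57N was 1.35-fold below WT with K57N values raised to that floor. Neither value is a firm minimum, because the mean of the higher line includes arrays not well above background. LAMB4 and COL21A1 were well above background on 1 WT array each. The remaining genes other than COL3A1 and COL22A1, described above, were well above background on no array.

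Different probes for a gene did not always give the same difference, and 15 members had 2 or more tested probes. In 12 of them all probes had 1 sign in K57N against WT, and in 3 (COL11A2, COL23A1 and COL27A1) the signs differed. COL5A1 was even, with -1.53, -1.68 and -1.23 on its 3 probes, of which 2 were called and all 3 with the replicate number as a term. LAMA4 was higher on all 4 of its probes, by 1.30, 0.65, 0.58 and 0.49, and only the first was called. That probe, at chr6:112574987-112575046 on hg19, was designed to another RefSeq transcript than the other 3. The mean of the probes gave 0.75 (adjusted p = 0.0845), so the LAMA4 call belongs to that probe. LAMB1 was 1.08 higher on the probe used and 0.25 on the second, which was not called with or without the replicate number. The second COL14A1 probe was at background in K57N, as stated with that gene. COL23A1 was 1.08 higher on a probe designed to an Ensembl transcript, at chr5:177989030-177989089 on hg19, and -0.65 on the probe designed to the RefSeq transcript, with adjusted p of 0.00728 and 0.243. With the replicate number as a term both passed 0.05, in opposite directions (0.00102 and 0.0139), and the mean of both probes was 0.21 (adjusted p = 0.78).

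LAMA5, the alpha chain of most adult epithelial basement membranes, is set apart here after its values were seen. The probe used for the gene, because it was the brighter, had a difference of -0.01 (adjusted p = 0.996), and the second probe had -1.22 (adjusted p = 0.0178), which passes the call. The second was designed to the RefSeq transcript, at chr20:60885302-60885361 on hg19, and the first to an Ensembl transcript, so the statement on LAMA5 depends on which probe is read. Whether the brighter probe binds other transcripts was not tested.

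**Figure D5:**
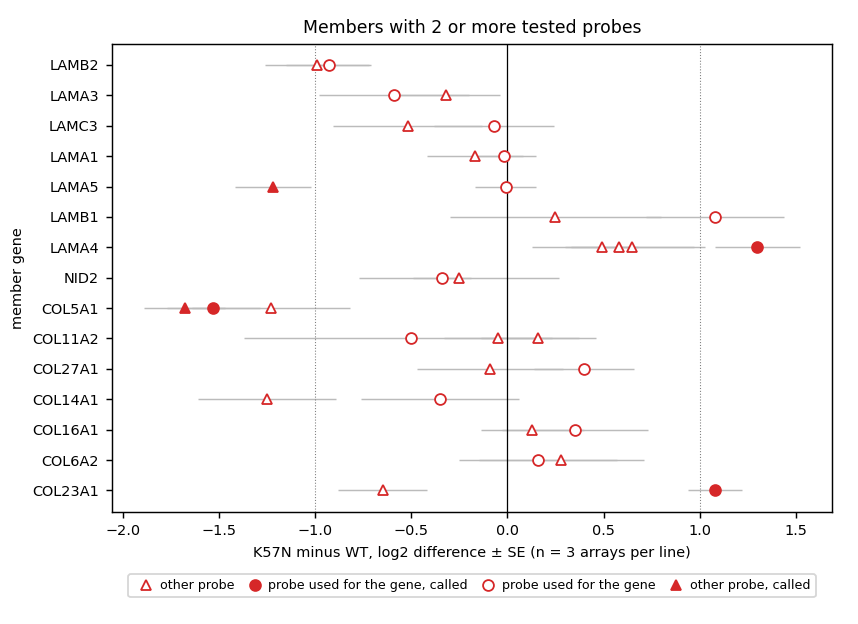
K57N minus WT log2 difference (± SE, n = 3 arrays per line) of every tested probe of the 15 members with 2 or more (for the second COL14A1 probe, at background in K57N, the mark is the fitted value and not a measured difference), with circles for the probe used for the gene, triangles for the others and filled symbols for calls. The 3 COL5A1 probes lie between -1.68 and -1.23, the COL23A1 probes at 1.08 and -0.65, and the LAMA5 probes at -0.01 and -1.22.

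No member differed in F53S cells by the test. No member was called, as was no gene of the 19280 in either direction (a background of 0% higher and 0% lower, also with the replicate number as a term). At an unadjusted p below 0.05 in limma, without a fold limit, 1 member was higher and 1 lower, against 0.628% and 0.275% of all tested genes. With the replicate number as a term it was 2 and 4, against 2.23% and 1.47%. None of the alternative settings called a member. The arrays did not overlap for 4 members with F53S below WT, namely COL4A4, COL4A6, COL5A1 and COL5A2, and for 1 above WT, COL13A1, against 1.64% and 1.55% of all tested genes. The comparisons of K57N and of F53S with WT use the same WT arrays and are not independent. Differences could have been missed, since the median SE over the members was 0.31, or 0.17 with the replicate number as a term.

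K57N was also set against F53S, in the fit of all 3 lines, so that the WT arrays add to the estimate of the spread but not to the differences. LAMA4 was 1.26 higher (adjusted p = 0.0374), COL13A1 was 1.89 higher (adjusted p = 0.0036) and NPNT was 1.73 lower on the log2 scale (-1.73, adjusted p = 0.0458). These 3 were the called members on the probes used for the genes, against a background of 0.96% of all tested genes called higher and 0.249% called lower. When the 2 lines were fitted alone, COL13A1 was the only one of the 3 that was called. With the mean of its probes LAMA4 was 0.64 higher (adjusted p = 0.209) and was not called. COL23A1 was 0.97 higher with an adjusted p of 0.0197, just under 2-fold. With the replicate number as a term COL4A4 (-1.38), AGRN (-1.24) and COL5A1 (-1.27) were called lower as well, with adjusted p of 0.00519, 0.0305 and 0.0288, which made 2 higher and 4 lower against backgrounds of 1.82% and 1.05%. The arrays did not overlap for 12 members with K57N below F53S and 5 with it above, against 10.3% and 8.34% of all tested genes.

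Calls with 3 arrays a line depended on single arrays for most of these genes, though the difference of no called gene changed sign. Leaving out each of the 9 arrays in turn, COL13A1 and COL5A2 kept their K57N against WT call in all 9 fits, with adjusted p up to 0.00625 and 0.0427. COL23A1 lost its call without K57N replicate 3 (adjusted p = 0.0509), and NPNT without WT replicate 2 or 3 (up to 0.0531). COL5A1 lost it without K57N replicate 3 or WT replicate 2 or 3 (up to 0.0559). LAMA4 lost it without any 1 K57N array or without WT replicate 2 or 3 (up to 0.1), and COL4A4 without any 1 K57N or WT array (up to 0.126). AGRN was called in 2 of the 9 fits, those without F53S replicate 1 and without K57N replicate 1, with adjusted p up to 0.114 in the others. Against F53S, COL13A1 was called in all 9 fits, and LAMA4 and NPNT in 2 each, with adjusted p up to 0.159 and 0.18.

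The proteins that make, cross-link and bind this matrix were looked at through 3 lists. Of 31 genes of collagen synthesis and cross-linking 27 were tested, and 2 fell in K57N against WT while none rose (0.742% and 1.52% of all tested genes). LOXL1, a lysyl oxidase-like enzyme, had WT values of 3.29, 2.75 and 2.71 and K57N values of 1.13, 1.30 and 1.48, and fell 3.06-fold (-1.61, adjusted p = 0.0101). COLGALT2, which adds galactose to collagen, had WT values of -0.91, -0.93 and -0.84 and K57N values of -2.03, -1.90 and -2.09, and fell 2.17-fold (-1.12, adjusted p = 0.00504). In both genes all K57N arrays were below all WT arrays. The collagen chaperone SERPINH1 (0.00), the prolyl hydroxylase subunit P4HB (-0.15) and lysyl oxidase LOX (0.15) had differences near 0, and the list median was -0.15. That median was -0.47, -0.04 and 0.06 between same-numbered arrays, for replicates 1, 2 and 3, against -0.14, 0 and -0.04 over all tested genes.

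Of 15 other basement membrane proteins 10 were tested, 9 of them with a negative difference, and their median was -0.56. By same-numbered arrays it was -1.01, -0.38 and -0.34 for replicates 1, 2 and 3, against -0.14, 0 and -0.04 over all tested genes. SMOC2, a calcium-binding matrix protein, fell 3.45-fold (-1.79, adjusted p = 0.00241), from WT values of -0.06, -0.32 and -0.25 to K57N values of -2.29, -1.93 and -1.76, which did not overlap. With the replicate number as a term 3 of the 10 were called lower, and 3 of the 27 synthesis genes, where 1.87% of all tested genes were called lower and 2.52% higher. The matrix receptors had 11 of 14 tested and none called, with a median of -0.19 (-0.57, -0.05 and 0.05 between same-numbered arrays). With the replicate number as a term 1 was called higher, the laminin receptor subunit ITGA3 (1.07, adjusted p = 0.00134), and 1 lower, the laminin receptor BCAM (-1.32, adjusted p = 0.0176). In F53S against WT none of the 3 lists had a called gene, as no tested gene was called. Against F53S, K57N called LOXL1 (-1.32, adjusted p = 0.0374) and SMOC2 (-1.35, adjusted p = 0.0138) lower. In that comparison 0.249% of all tested genes were called lower and 0.96% higher. Both calls were lost when the 2 lines were fitted alone, and with each array left out in turn LOXL1 kept its call in 1 of 9 fits, that without WT replicate 1 (adjusted p up to 0.154). SMOC2 kept it in 6 of 9, losing it without F53S replicate 2 or 3 or K57N replicate 2 (up to 0.0883). Against WT, LOXL1 lost its call without K57N replicate 2 (adjusted p = 0.0529), and SMOC2 and COLGALT2 kept theirs in all 9 fits.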

How the data were processed

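RNA of 9 cultures was hybridised to Agilent SurePrint G3 Human 8x60K v2 arrays, in 1 colour. Per the file headers, the deposited intensity values are the processed signals of Agilent Feature Extraction 10.10.1.1, after background subtraction. The authors' deposited log2 table of the same arrays served as an alternative, and its values matched log2 processed signal minus the 75th percentile of the array within 0.02 for 100% of 49696 single-spot probes. From the intensities, that same log2 value was computed, flagged spots were left out and repeated spots averaged. Probes well above background on all 3 arrays of a line (25400) were tested with limma 3.58.1 in R 4.3.3, with 1 mean per line and Benjamini-Hochberg adjustment. The probe with the highest mean stood for a gene (19280 genes). The number of arrays limits the precision.

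Named were the members called with or without the replicate number as a term, the highest and lowest of each list, the head-to-head pairs of collagen IV, FN1, COL14A1 and called pathway genes, at most 6 a list. Members and lists were chosen with earlier results of these data known. Same-numbered arrays of different lines deviated together (r = 0.35 to 0.88 over 19222 genes). Replicate 1 of every line lay on its own slide, so this r cannot tell pairing from slide. Within the second slide alone, same-numbered arrays of different lines had r of 0.04 to 0.21. Pairing by number is thus hardly shown for replicates 2 and 3. The replicate number was still used as a term, and slide as a term was an alternative. Probe positions are hg19 and promoters are RefSeq GRCh38.p14. The fit was tested on simulated data. Alternatives covered background correction, normalization, filter, probe choice, samples, replicate and slide terms, the deposited table, the methods' t-test and each array left out. Some items, among them 1 tested member's own values, are not reported here.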

Additional observations from a re-analysis of the deposited data

How the results depend on the processing

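Of the values for single named genes, 1590 kept their direction and side of the threshold across the alternatives, 92 lost a call, 27 gained one, 52 changed sign with no call in either setting, and no called value changed sign. On slide 2 alone, for example, COL14A1 in K57N against WT went from -0.35 to 0.14 and COL4A2 from -0.02 to 0.35. Members called higher in K57N against WT (3) were 1 without the filter on dim probes, 1 with the mean of a gene's probes and 5 on slide 2 alone, and 1 to 3 with an array left out. Members called lower (5) were 0 without the filter, 3 with only the 2 lines fitted, 8 with the replicate number as a block, 8 with slide as a term and 1 by the methods' t-test with adjustment, and 1 to 5 with an array left out. In K57N against F53S, members called higher (2) were 1 with normexp, 1 without the filter, 1 with the mean of probes, 1 with only the 2 lines fitted and 0 by the adjusted t-test, and 1 to 2 with an array left out. Members called lower (1) were 0 with normexp, without the filter, with probes well above background on all 9 arrays, with only the 2 lines fitted, with the deposited table and by the adjusted t-test. They were 4 with the replicate block, 4 with slide as a term, 3 on slide 2 alone and 3 by the unadjusted t-test, and 0 to 2 with an array left out. F53S against WT gave 0 in every alternative run. The fibrillar median ranged from -1.17 to -0.5 in K57N against WT, from -0.4 to -0.1 in F53S against WT (-0.07 with normexp) and from -0.75 to -0.39 in K57N against F53S with an array left out. The basement membrane median ranged from -0.35 to -0.2, from -0.14 to 0 and from -0.29 to -0.1. In this balanced design the replicate block leaves the members' differences as they are and changes only their errors. The unfiltered fit tests more probes, and the 2-line fits use fewer arrays. The cause of the other shifts was not tested.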
